A study of Homo sapiens with 47 samples.

Results

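The ChIP input of PC3 cells that overexpress DDC was compared with that of PC3 cells carrying an empty vector, over all regions on chromosomes 1 to 22 of the deposited region count table. The members were chosen by label and chromosome alone: 6 of the 47 samples of the series (3 DDC inputs and 3 empty-vector inputs) and 18841 of the 19535 regions. PC3 is an established line from a bone metastasis of a human prostate carcinoma. The study transduced it with DDC, the decarboxylase that makes serotonin and dopamine from their amino acid precursors, with SLC6A4, the serotonin transporter, or with an empty vector. It measured RNA, H3K4me3 (a histone mark of active gene starts) and H3K4me3Q5ser (the same mark with serotonin attached to the neighbouring glutamine). The DDC group is labelled DDC OE in PC3 and the control group, called CTRL here, carries the empty vector. No drug, allele or age is given for either. The promoter of the constructs, and whether each line is a pool or a clone, are not given in the sources used here. Each construct is represented by a single line, so a difference tied to the construct and a difference between 2 cell lines cannot be told apart. The labels do not say that replicates came from separate cultures, so every p-value measures the spread between these libraries, which may be technical.

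Input is the crosslinked, fragmented chromatin sequenced without antibody. The number of input reads over a stretch of genome follows the amount of DNA there, and input is for that reason used both as the background of a ChIP and as a view of copy number. Read yield also depends on base composition and on how readily chromatin breaks. PC3 is known for an aneuploid, rearranged genome in which most chromosomes are not present in pairs, and long-cultured carcinoma lines are known to drift in copy number.

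The regions were called by the authors on H3K4me3Q5ser ChIP, so they sample gene starts more than the rest of the genome. They had a median length of 4068 bp and covered 100 Mb, or 3.48% of the autosomes. Of the 18841 regions, 9789 held the start of a protein-coding gene within 1000 bp, and the median GC content of all regions was 46.8%. A single start was used per gene, the outermost annotated one, so starts of other transcripts inside a gene were not counted. DNA upstream of the gene starts in 2 named regions that were lower in DDC is printed as an example of base composition. Each stretch is the 120 bases nearest upstream of the start that overlap no annotated exon, on the gene's strand, in GRCh38, with CpG in capitals.
DKK1 (chr10:52313511-52313630, plus strand): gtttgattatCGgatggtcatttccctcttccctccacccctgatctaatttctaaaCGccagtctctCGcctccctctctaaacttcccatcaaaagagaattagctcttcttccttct
IGF2BP2 (chr3:185825043-185825162, minus strand): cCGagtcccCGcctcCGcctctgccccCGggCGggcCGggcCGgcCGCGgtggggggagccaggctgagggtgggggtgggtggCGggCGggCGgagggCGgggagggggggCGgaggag
The stretch of DKK1 lies 650 bases upstream of its start, and that of IGF2BP2 directly before its start. DKK1 had a GC content of 45% in its stretch and IGF2BP2 85.8%, at unlike distances from the start. The whole regions, over which input was counted, were closer, at 40.8% and 45.2%.

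The input libraries held 1717135, 1503439 and 1833609 read pairs in the regions for CTRL and 1756749, 1728091 and 1394509 for DDC, or a median of 44 to 57 pairs per region. Counts were therefore summed over regions in bins of 10 Mb. Of 293 bins that held a region, 291 held at least 5 and were tested, with a median of 47 regions per bin and 4018.5 pairs per bin and library. Replicates of the same line differed little more than counting noise: the chi-square per degree of freedom was 1.01 to 1.05 over regions and 1.04 to 1.19 over bins. Between the lines it was 1.52 to 1.61 over regions and 14.3 to 17.5 over bins. Between DDC libraries 2 and 3 it was 1.01 over regions, which did not pass the test against counting noise (chi-square test over 17075 regions, p = 0.154), while the other same-line pairs passed (p from 8.24e-06 to 0.0378). Over 293 bins it was 1.1 for that pair (chi-square test, p = 0.107). Both were kept as separate replicates, and counts with both taken as 1 sample are given below. In RNA the keratins KRT8, KRT18 and KRT19, VIM and CD44 were expressed in all 6 CTRL and DDC libraries, and KLK3, an androgen-driven gene that PC3 is known to lack, was listed at 0. Of the markers of other cells, PTPRC, CD3E and VWF were listed at 0 in all 6, and COL3A1 was at most 6.36 normalised units. The macrophage marker CD68 was at 126 to 136 in CTRL and 136 to 169 in DDC. The endothelial marker PECAM1 was at 206 to 229 against 65.3 to 85.3 and the fibroblast marker COL1A1 at 35 to 45.6 against 9.14 to 21.5, both lower in DDC without overlap. Their part in the results was not tested. The recovered RNA reads of DDC itself numbered 0, 0 and 1 in CTRL and 23, 25 and 31 in DDC.

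The input of the DDC line differed from that of CTRL in blocks that reached across many megabases, with more DNA reads over the distal long arm of chromosome 12 and over chromosome 19 and fewer over the distal long arm of chromosome 3. By edgeR's quasi-likelihood test, 193 of 291 bins (66.3%) passed an adjusted p of 0.05, 93 higher (32%) and 100 lower (34.4%) in DDC. All differences are given as log2 of DDC over CTRL and are relative to the other regions, since libraries were scaled to each other (TMM). A difference carried by some of the cells and a smaller difference in all cells cannot be told apart in such bulk DNA. Most differences were small: the called bins had a median absolute log2 of 0.0979, and values over all bins ran from -0.33 to 0.38. In 198 bins (68%) the 3 DDC libraries lay entirely above or below the 3 CTRL libraries. Only 15 bins (5.15%) passed both the adjusted p and a log2 of at least 0.2 in size, 9 higher (3.09%) and 6 lower (2.06%). With DDC libraries 2 and 3 taken as 1 sample, 93 bins were higher and 94 lower, of which 8 and 6 reached 0.2. Gaining a copy in every cell would give log2 of 0.58 from 2 copies, 0.42 from 3 and 0.32 from 4, and losing a copy -0.58 from 3, -0.42 from 4 and -0.32 from 5.

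**Figure D1:**
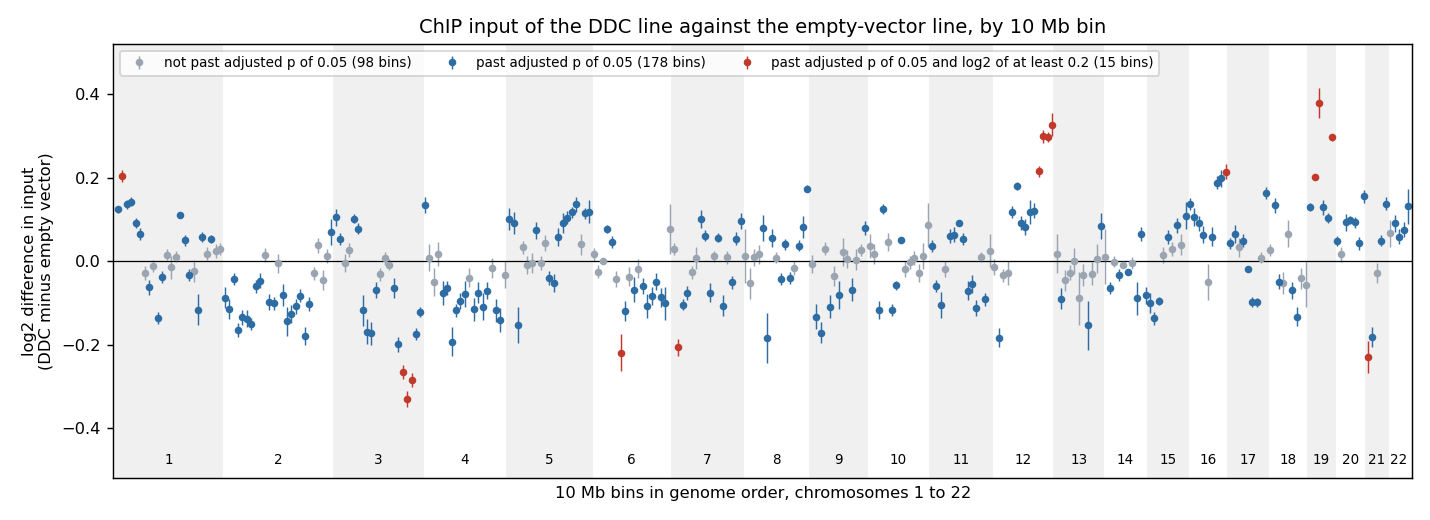
Log2 difference in ChIP input (DDC minus empty vector, y axis) for the 291 tested bins of 10 Mb in genome order (x axis); points are fitted values and bars their standard errors. The 15 bins in red passed the adjusted p and reached 0.2 in size, and lie on chromosomes 1, 3, 6, 7, 12, 16, 19 and 21.

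Chromosome 12 held 4 of the 9 higher bins, adjacent to each other and reaching its long-arm end. In the bin at 120 to 130 Mb the scaled input was 7203, 7295 and 7258 CPM (pairs per 1000000 of the scaled library) in CTRL and 8942, 8744 and 9055 in DDC. The groups did not overlap, and DDC was 1.23-fold higher (log2 0.30, SE 0.01, edgeR adjusted p = 4.1e-25). At 110 to 120 Mb the levels were 4363, 4317 and 4328 in CTRL against 5230, 5343 and 5441 in DDC (log2 0.30, adjusted p = 6.5e-22). The terminal bin at 130 to 134 Mb held 44 regions and read 1326, 1253 and 1337 against 1574, 1727 and 1617 (log2 0.33, adjusted p = 1.3e-13). The bin at 100 to 110 Mb differed by 0.22 (adjusted p = 1.1e-17). No DDC library overlapped a CTRL library in any of the 4 bins.

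These bins ended a run of 10 adjacent higher bins from 40 to 134 Mb. Over its 816 regions the summed input was 39855, 39965 and 40035 CPM in CTRL and 45810, 45897 and 46120 in DDC, a log2 difference of 0.20. Of 764 regions tested singly in the run, 599 (78.4%) lay above 0, against 51% of all 17442 tested regions. Runs were picked on the sums of these same regions, so such shares, here and below, describe a run and do not test it. In windows of 2 Mb the difference was uneven along the chromosome. It was -0.16 to -0.23 in the windows between 8 and 20 Mb of the short arm and 0.14 to 0.21 between 48 and 58 Mb. Several windows further on were lower, as at 62 (0.05), 74 (0.01) and 92 Mb (0.02), while the one at 80 Mb, with 6 regions, was at 0.35. From 98 Mb on all windows lay between 0.14 and 0.36, with 0.32 at 122 Mb and 0.36 at 132 Mb. Gene starts of the run had a median of 0.19 and regions that were neither gene starts nor short coding exons 0.15, so the run did not rest on 1 class of region.

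Chromosome 3 held the 3 lower bins with the smallest adjusted p, also adjacent. At 160 to 170 Mb the level was 2496, 2611 and 2568 CPM in CTRL and 2048, 2023 and 2026 in DDC. DDC lay below CTRL in every library, at 0.795 of its level (log2 -0.33, SE 0.02, edgeR adjusted p = 6.7e-19). At 170 to 180 Mb the values were 3138, 3139 and 3205 against 2627, 2547 and 2615 (log2 -0.28, adjusted p = 1.2e-18), and at 150 to 160 Mb 4024, 4187 and 4179 against 3450, 3425 and 3432 (log2 -0.27, adjusted p = 8.2e-19). The bins at 140 and 180 Mb were also among the lower bins with the smallest adjusted p, at -0.20 and -0.17. The run of lower bins went on from 130 Mb to the end of the chromosome (7 bins, 414 regions, log2 -0.20), and 73 of its 390 tested regions (18.7%) lay above 0. Its lowest windows of 2 Mb were those at 164 (-0.44), 172 (-0.39) and 160 Mb (-0.38). The windows between 100 and 130 Mb ran from -0.21 to 0.05, and the short arm was slightly higher in DDC (log2 0.03, edgeR adjusted p = 1.2e-07).

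**Figure D2:**
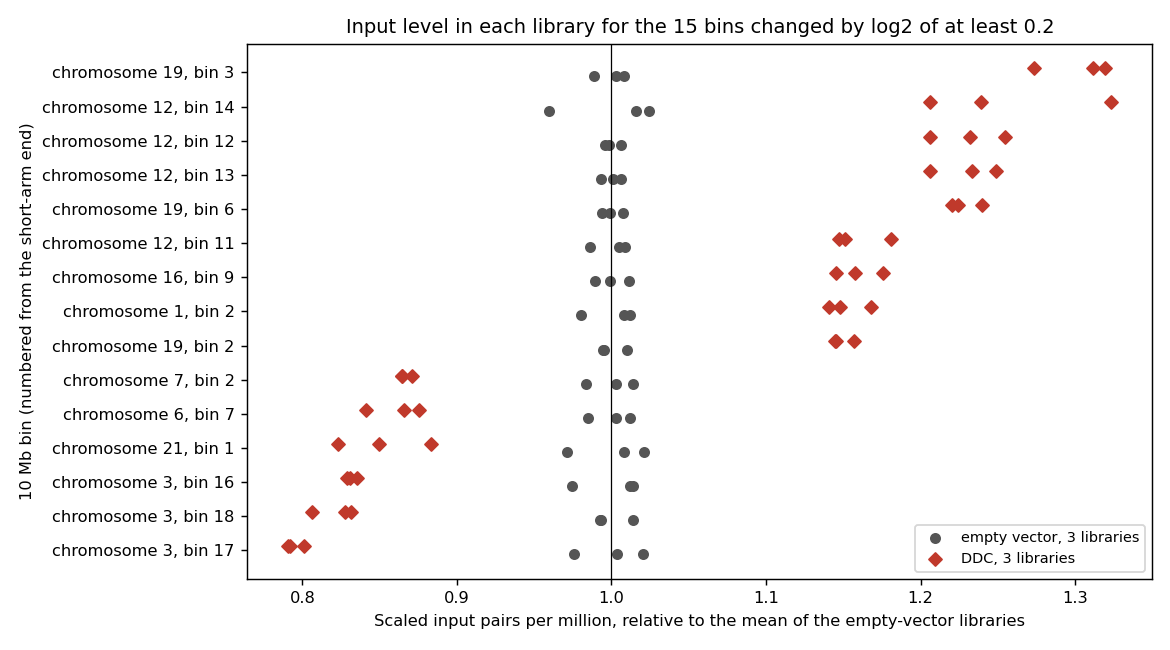
Scaled input (CPM) of each library, divided by the mean of the 3 empty-vector libraries (x axis), in the 15 bins that differed by log2 of at least 0.2 (y axis, bins numbered from the short-arm end). Circles are the 3 empty-vector and diamonds the 3 DDC libraries; in all 15 bins the groups do not overlap, from about 0.795 of CTRL on chromosome 3 to 1.30 on chromosome 19.

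Chromosome 19 was higher along its whole length, but unevenly. All 6 of its bins were higher, over 1575 regions with a summed level of 55803, 55872 and 55763 CPM in CTRL and 63794, 64342 and 64297 in DDC (log2 0.20). The bin at 50 to 59 Mb read 15100, 14967 and 14890 in CTRL and 18290, 18342 and 18581 in DDC (log2 0.30, SE 0.01, edgeR adjusted p = 6.9e-33), the smallest adjusted p of all bins. The bin at 20 to 30 Mb had the highest log2 of all 291, 0.38 (SE 0.04, adjusted p = 2.3e-12), with 565, 576 and 573 against 727, 749 and 754. It held only 40 regions, and its CTRL density was 0.496 of the mean over all regions. At 10 to 20 Mb the difference was 0.20 (adjusted p = 2.8e-29). The groups did not overlap in these 3 bins.

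The uneven pattern on chromosome 19 was read against its clusters of zinc-finger genes, a family of DNA-binding repressors that has expanded in tandem there. This grouping was chosen after the values were seen, so it is described and not tested. Regions at zinc-finger gene starts on chromosome 19 had a median log2 of 0.30, and 161 of 180 (89.4%) lay above 0, with 73 called higher and none lower (2 lower at an unadjusted p of 0.05, none by DESeq2). Other protein-coding starts on chromosome 19 had a median of 0.07 over 519 regions (66.3% above 0, 24 higher and 4 lower). On the other autosomes, 223 zinc-finger starts had a median of 0.07 and 8577 other starts 0.00. The regions of chromosome 19 without a protein-coding start also stood high, with a median of 0.22 over 740. Among windows of 2 Mb, the one at 22 Mb differed by 0.61 (SE 0.06, 57.1% of its regions at zinc-finger starts), the one at 52 Mb by 0.44 (27.6%) and the one at 56 Mb by 0.33 (27.8%). The windows at 38 and 40 Mb, with 1.96% and 5.26%, were at 0.05 and 0.02, and neither passed the adjusted p. Other windows did not follow this order. Those at 10 and 12 Mb, with 7.46% and 7.79%, were at 0.23 and 0.25, while those at 42 and 44 Mb, with 19.4% and 17.9%, were at 0.11 and 0.14. The median GC content was 46.6% in the zinc-finger starts and 54.8% in the other starts of the chromosome, and with a correction for GC (below) their medians were 0.29 and 0.00.

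**Figure D3:**
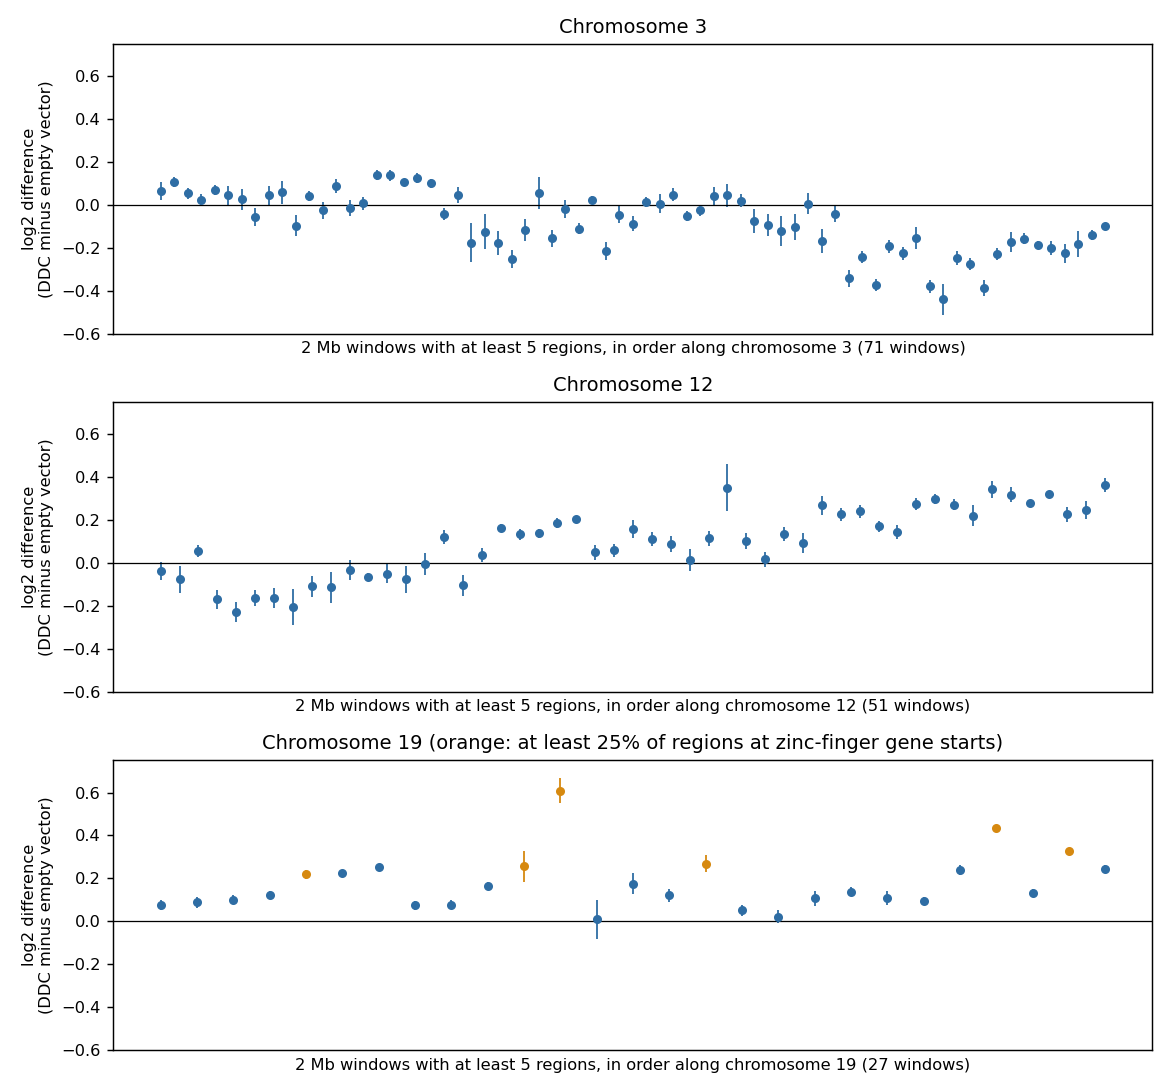
Log2 difference in input (DDC minus empty vector, y axis; bars are standard errors) in windows of 2 Mb with at least 5 regions, in order along chromosomes 3, 12 and 19 (x axis). Chromosome 3 is lower from about 146 Mb on, chromosome 12 is uneven up to about 98 Mb and reaches 0.36 near its end, and on chromosome 19 the orange windows, rich in zinc-finger gene starts, include the highest, at 0.61.

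The other bins that reached 0.2 each came from a shorter or weaker run. On chromosome 16 the bin at 80 to 90 Mb read 2462, 2432 and 2408 CPM in CTRL and 2817, 2862 and 2788 in DDC (log2 0.21, edgeR adjusted p = 3.2e-14), within a run from 50 to 90 Mb of log2 0.17. On chromosome 1 the bin at 10 to 20 Mb differed by 0.20 (adjusted p = 2.2e-16), within a run from the start to 60 Mb of log2 0.13. Lower bins lay on chromosome 7 at 10 to 20 Mb (log2 -0.21, adjusted p = 1.7e-11), on chromosome 21 below 10 Mb (-0.23, adjusted p = 1.6e-06) and on chromosome 6 at 60 to 70 Mb (-0.22, adjusted p = 5.1e-05). The chromosome 6 bin held 17 regions and lost its call with a correction for GC (log2 -0.09, adjusted p = 0.069). The chromosome 21 bin covers its short arm, a repeat-rich stretch where pairs that align to several places were shared as fractions, and its lower value rested on the window at 6 Mb (log2 -0.37, 30 regions).

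Over the genome, 146 bins formed 41 runs of 2 or more adjacent called bins with the same sign, 20 higher and 21 lower. Among the higher bins with the smallest adjusted p were also those on chromosome 8 at 140 Mb (log2 0.17), chromosome 12 at 50 Mb (0.18) and chromosome 1 at 150 Mb (0.11). Among the lower ones were chromosome 2 at 60 Mb (-0.15) and 30 Mb (-0.16) and chromosome 17 at 60 Mb (-0.10). Outside the 8 runs with a bin of 0.2 or more, the longest was a lower run on chromosome 2 from its start to 90 Mb, of 9 bins, at 28337, 28338 and 28153 CPM in CTRL and 26412, 26214 and 26436 in DDC. The next was a lower run of 7 bins on the same chromosome from 130 to 200 Mb. Summed by chromosome arm, 36 of 40 tested arms (90%) differed, 20 higher (50%) and 16 lower (40%). The long arm of chromosome 12 led, with 40174, 40274 and 40364 CPM in CTRL and 46126, 46201 and 46461 in DDC (log2 0.19, SE 0.005, edgeR adjusted p = 6.6e-81). It was followed by 19q (0.21), 19p (0.17), 3q (-0.15), 2p (-0.12), 16q (0.15), 1p (0.06) and 4q (-0.10). The short arm of chromosome 12 went the other way from its long arm, at -0.07 (adjusted p = 4.1e-12).

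The difference moved with base composition. Across the 291 bins the Pearson correlation of the log2 difference with GC content was 0.588, as a description of bins that share the same 6 libraries. When a smooth trend of the region differences on GC content was entered as an offset, that correlation was 0.263, and 132 of the 193 called bins were called again in the same fit. In that fit 95 bins were higher (32.6%) and 59 lower (20.3%), of which 6 (2.06%) and 4 (1.37%) reached 0.2. All 9 of the higher bins of 0.2 or more were still called, at 0.15 to 0.37, as were 5 of the 6 lower ones. Of the 193 called bins, 15 had the other sign in that fit, and 1 of them, on chromosome 1 at 70 to 80 Mb, was called so (0.04 against -0.06, edgeR adjusted p = 0.046). The 3 bins on chromosome 3 were at -0.22 to -0.26 and the 4 on chromosome 12 at 0.23 to 0.28. How much of the remaining difference belongs to GC was not tested. With plain library totals in place of TMM the median of all bins moved from 0.00 to -0.03, and the split was 66 higher and 130 lower, 5 and 14 of them of 0.2 or more.

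The density of input in CTRL itself, as pairs per base relative to the mean of all regions, gave the starting level of each arm. It was highest on 10q (1.59), 14q (1.59), 8q (1.54), 18p (1.45) and 3q (1.29) and lowest on 16p (0.498), 22q (0.516), 17p (0.557) and 16q (0.579). In DDC, 3q moved to 1.18 and 16q to 0.649, and 12q moved from 0.90 to 1.03. The arms of low density also had high GC content (53.4% on 16p against 46.5% on 10q), and the part of GC in these levels was not tested.

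Among single regions, 1127 of 17442 tested (6.46%) passed the adjusted p by edgeR's quasi-likelihood test, 472 higher (2.71%) and 655 lower (3.76%). DESeq2 called 42 higher and 63 lower, so at 44 to 57 pairs per region the number of calls depends on how the spread is modelled. Leaving out CTRL library 3 gave 307 higher regions, and leaving out DDC library 2 gave 297 higher and 410 lower. The 8 runs above held 38.2% of the called regions and 22.2% of all tested regions. The runs were picked on sums of these same regions in the same libraries, so this excess follows in part from that choice. In the chromosome 12 run 88 regions were higher and 5 lower, in the chromosome 3 run 87 were lower and none higher (1 at an unadjusted p of 0.05, none by DESeq2), and on chromosome 19 there were 158 higher and 6 lower.

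The region with the smallest adjusted p on the higher side lay at the start of PARD3, a cell polarity scaffold (chr10:34806904-34821032, GRCh38, 14129 bp, first exon and flanks). It held 771, 681 and 799 pairs in CTRL and 1034, 985 and 774 in DDC, or 457, 461 and 444 against 599, 580 and 565 CPM. For single regions and for the exon genes below, CPM was scaled by plain library totals, without TMM. DDC was higher in every library (log2 0.36, SE 0.04, edgeR adjusted p = 1.7e-14). The next overlapped a coding exon of CUL2, a scaffold of ubiquitin ligases (chr10:35080928-35095329), at 459, 475 and 463 against 581, 596 and 574 CPM (log2 0.32, adjusted p = 2.8e-12). It did not hold the outermost start of that gene, and starts of other transcripts were not looked up. Both stood on a stretch of high input: their density was 3.22 and 3.23 times the mean in CTRL and 4.12 and 4.05 times in DDC. Of the 7 other tested regions within 1 Mb of each, 6 lay above 0 and 3 were called higher. The bin of 10 Mb that holds both differed by 0.12.

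On the lower side, the region at TSC22D2, a regulator of the leucine-zipper TSC22 family (chr3:150404950-150420653), held 567, 493 and 566 pairs in CTRL and 412, 383 and 320 in DDC. The scaled levels were 336, 334 and 315 against 239, 226 and 234 CPM, without overlap (log2 -0.50, SE 0.06, edgeR adjusted p = 5.7e-15). At IGF2BP2, an RNA-binding protein that stabilises transcripts (chr3:185817887-185831625), the scaled levels were 226, 196 and 226 against 154, 148 and 137 (log2 -0.57, adjusted p = 2.4e-12). Both lie in the lower run of chromosome 3, and none of the 18 and 17 other regions tested within 1 Mb of them lay above 0. The last named region, at DKK1, a secreted Wnt antagonist (chr10:52311228-52320120), held 462, 466 and 465 CPM in CTRL and 362, 357 and 368 in DDC (log2 -0.36, adjusted p = 4.5e-12). Its CTRL density was 5.22 times the mean, and 4.07 times in DDC. Of 10 other tested regions within 1 Mb, 1 lay above 0 and 4 were called lower. With the correction for GC described above, the regions of IGF2BP2 and DKK1, whose upstream DNA is printed above, were at -0.57 and -0.29.

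The other named region on the higher side was in TMPRSS2, a serine protease gene known for its fusions in prostate cancer (chr21:41503158-41508075, inside the annotated gene and overlapping a coding exon). Whether another transcript of the gene starts there was not looked up. It held 59.5, 51 and 53.5 pairs in CTRL and 123, 131 and 86.5 in DDC, or 35.3, 34.6 and 29.7 against 71.3, 77.2 and 63.1 CPM. DDC was about 2-fold higher without overlap (log2 1.09, SE 0.13, edgeR adjusted p = 2.8e-12). The neighbouring regions of the same gene behaved alike: of the 6 regions in the gene 5 could be tested, and all 5 were higher, by 0.75 to 1.20. In H3K4me3 none of these 5 passed the adjusted p, which 18.2% of all tested regions did. In H3K4me3Q5ser all 5 were lower in DDC, by -0.51 to -0.70, as were 31.2% of all tested regions. The DDC libraries were uneven there. Summed over the 3 short coding-exon regions of the gene, H3K4me3Q5ser was 20.6, 15.9 and 19.3 CPM in CTRL. In DDC it was 5.76, 12.7 and 20.8, so the groups overlapped and the lower mean came mainly from DDC library 1. Of 15 other tested regions within 1 Mb, those of the gene included, 13 lay above 0, with a median of 0.26. The 4 of them called higher were all in the gene. Its level over 91 regions differed by 0.14, and its RNA was near the detection limit, at 4.02, 4.24 and 6.76 normalised units in CTRL and 4.06, 0 and 0.975 in DDC.

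Differences of 2-fold or more were rare, 23 regions higher (0.132%) and 40 lower (0.229%). The 2 sides differed in kind. Of the 23 higher regions, 16 (69.6%) were under 3000 bp, at coding exons and without a protein-coding gene start, as defined above, within 1000 bp. That class made up 5.35% of the tested regions. Among the 40 lower regions none was of that class (3 would be at an unadjusted p of 0.05, none by DESeq2) and 37 (92.5%) lay at neither a gene start nor a short coding exon. Depth was low on both sides, with a median of 15.8 pairs per library in the higher and 15 in the lower regions. The highest was in FGFR1 (log2 1.86, edgeR adjusted p = 5.2e-05), followed by PALB2 (1.75) and AKT1 (1.73).

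Genes with at least 3 such exon regions were then listed, a grouping chosen after the values were seen and so given without a test. Their log2 values compare the mean CPM of the groups and are not fitted. There were 23 such genes, of which 20 were above 0 and 13 had all 3 DDC libraries above all 3 CTRL libraries. Among single regions 11.3% of all tested and 12.8% of the short coding-exon class were without overlap in that direction, at a lower depth than these sums. The class as a whole had a median log2 of 0.07 over 933 tested regions, with 57.3% above 0, 36 called higher and 16 lower. Its median was 0.01 in H3K4me3 and 0.12 in H3K4me3Q5ser. Receptor tyrosine kinases, which carry growth signals across the membrane, stood among the highest. FGFR1 had 21.4, 31.8 and 21.1 CPM in CTRL and 52.2, 66.0 and 46.7 in DDC (5 regions, log2 1.15). RET had 27.9, 27.8 and 15.6 against 51.6, 51.8 and 40.9 (1.02), and ALK 36.2, 37.3 and 28.3 against 51.6, 63.6 and 67.2 (0.84). ERBB2 was at 0.90 with overlapping groups, and EGFR at 0.73. Of genes of DNA replication and repair, POLE had 45.1, 47.4 and 35.6 against 77.1, 104 and 77.4 (1.01), RAD54L was at 0.94 and BRCA1 at 0.68. NOTCH2, a receptor of cell-contact signalling, read 39.2, 33.9 and 23.3 against 60.8, 82.5 and 49.6 (1.00). At the low end XPO5, EIF4G1 and SLC6A4 were at -0.02, -0.04 and -0.38, with overlapping groups.

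The ChIP of the DDC line did not show the same difference when these genes were summed, though the median of the whole class was above 0 in H3K4me3Q5ser too. Over the 23 genes, input was 710, 718 and 652 CPM in CTRL and 967, 1095 and 1009 in DDC. H3K4me3Q5ser was 344, 306 and 331 in CTRL and 280, 344 and 342 in DDC, and H3K4me3 225, 224 and 239 against 247, 238 and 223. The groups overlapped in both ChIPs and not in the input. The H3K4me3Q5ser sums include PRL, which was uneven between libraries. It was at 47.4, 45.6 and 2.04 CPM in DDC and at 26.6, 26.9 and 25.1 in CTRL. In single genes the log2 of H3K4me3Q5ser was -0.43 at FGFR1, -0.45 at RET, -0.54 at NOTCH2 and -0.61 at ALK, with overlapping groups in all 4. At FGFR1 the 3 DDC libraries read 6.68, 13.1 and 18.2 CPM and the CTRL libraries 18.7, 15.2 and 17.1, so the lower mean came mainly from DDC library 1. In 6 of the 23 genes H3K4me3Q5ser was higher in DDC without overlap, among them MAN2B1 (all 3 DDC libraries at 21.3 CPM or more, the CTRL libraries at 15.6 or less, log2 0.59, input 0.47) and NUP85 (0.38, input 0.19). In H3K4me3 3 genes were higher and 1 lower without overlap. Of the 23 genes, 5 had a tested start region in the list of cancer genes described below, and none of these passed the adjusted p in input (edgeR, 0.66 to 0.93). Among them the start region was at -0.03 in FGFR1, -0.09 in EGFR, 0.10 in ERBB2 and -0.10 in BRCA1. The bins do not rest on them: without the short coding-exon regions 92 bins were higher and 101 lower, 8 and 6 of them by 0.2 or more. What sets these exon regions apart was not tested.

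**Figure D4:**
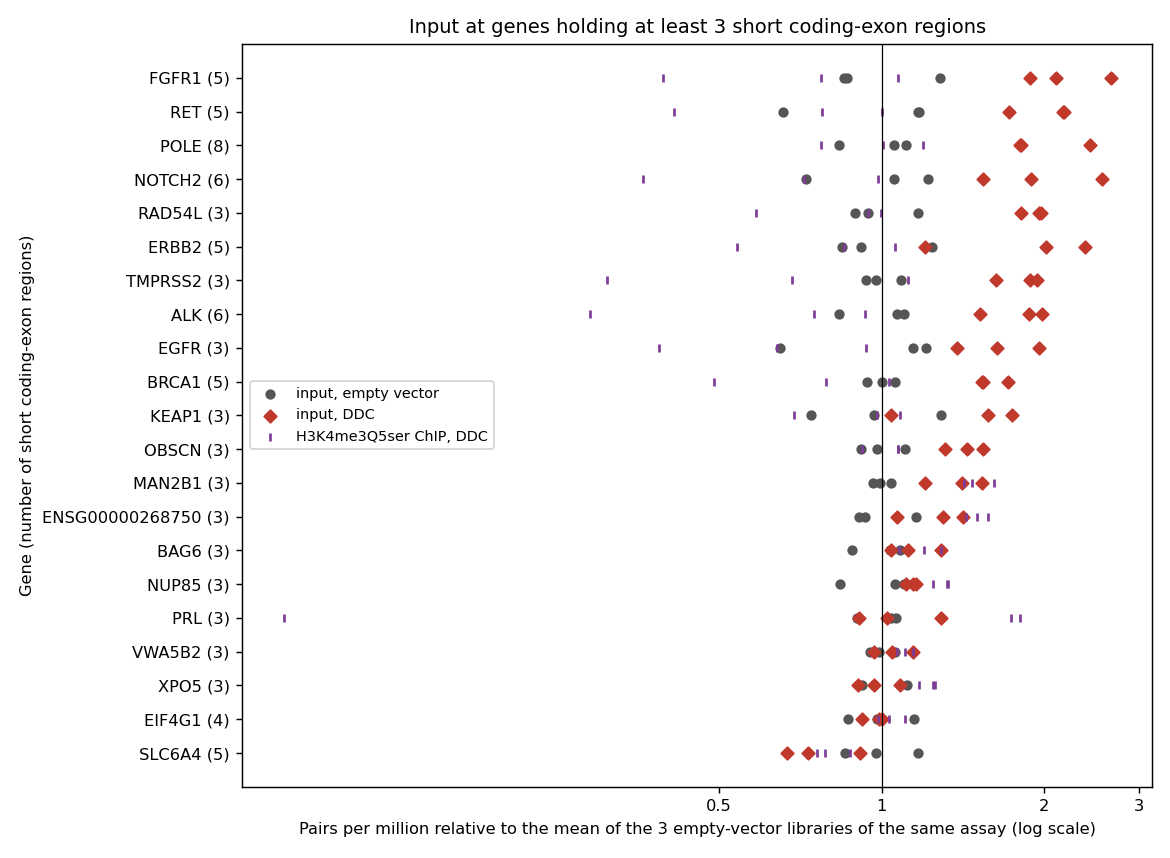
CPM over the short coding-exon regions of 21 of the 23 genes (y axis, number of regions in brackets), relative to the mean of the 3 empty-vector libraries of the same assay (x axis, log scale). Circles are empty-vector input, diamonds DDC input and ticks DDC H3K4me3Q5ser; DDC input lies near 2 for FGFR1, RET, POLE and NOTCH2 while H3K4me3Q5ser of the same line lies mostly at or below 1 there.

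The bins were then read in the 2 ChIPs, which are other libraries of the same 2 lines. In H3K4me3, 193 of 291 bins differed (66.3%), 97 higher (33.3%) and 96 lower (33%), and in H3K4me3Q5ser 270 (92.8%), 127 higher (43.6%) and 143 lower (49.1%). Of the 15 bins of 0.2 or more in input, all 9 higher bins were called higher and all 6 lower ones lower in both ChIPs. Of all 193 called input bins, 129 were called in the same direction and 16 in the other in H3K4me3, and 189 and 1 in H3K4me3Q5ser. One of those 16 was the first bin of chromosome 1, at 0.12 in input and -0.05 in H3K4me3 (edgeR adjusted p = 1.6e-05). The bin of chromosome 12 at 120 to 130 Mb was at 0.30 in input, 0.23 in H3K4me3 and 0.34 in H3K4me3Q5ser. That of chromosome 3 at 160 to 170 Mb was at -0.33, -0.22 and -0.30, and that of chromosome 19 at 20 to 30 Mb at 0.38, 0.44 and 0.46. Across bins the Pearson correlation of the input difference was 0.933 with H3K4me3Q5ser and 0.768 with H3K4me3 (291 bins that share lines, regions and base composition). With the GC offset on the input alone the order of the marks turned, at 0.835 and 0.874. GC content correlated with the H3K4me3Q5ser difference at 0.603 and with that of H3K4me3 at 0.0524.

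Whether a mark moved beyond the input was tested as an interaction of assay and line in edgeR. For H3K4me3, 34 bins were higher than the input difference (11.7%) and 76 lower (26.1%), with a median absolute excess of 0.0411 and none above 0.22. For H3K4me3Q5ser 56 were higher (19.2%) and 22 lower (7.56%), with a median of 0.0272 and none above 0.19. An excess of 0.2 or more was reached by 3 bins, lower in H3K4me3 (1.03%), and by none in H3K4me3Q5ser, where the counts at the adjusted p alone are those just given. With plain library totals the H3K4me3 split turned to 102 higher and 39 lower, so its direction against input depends on the scaling. With the correction for GC no bin was higher (3 at an unadjusted p of 0.05, no other tool run) and 66 were lower. These counts also move with single libraries. The higher H3K4me3 bins numbered 19 without CTRL input 3, 65 without H3K4me3 CTRL library 1, 58 without CTRL 2, 65 without CTRL 3 and 60 without DDC 1. The higher H3K4me3Q5ser bins numbered 31 without CTRL input 2 or 3, 34 without DDC input 1 and 35 without DDC input 2. Its lower bins numbered 10 and 11 without CTRL input 1 and 2, 12 without DDC input 1 or 2, 14 without DDC input 3 and 34 without H3K4me3Q5ser CTRL library 2.

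RNA of genes in the 8 runs with a bin of 0.2 or more leaned the same way. By limma on the deposited normalised values, 2281 of 13146 genes (17.4%) differed between DDC and CTRL, 1175 higher (8.94%) and 1106 lower (8.41%). Without CTRL library 1 or 2 the lower genes numbered 734 and 708. Of 548 genes in the chromosome 12 run 164 were higher (29.9%) and 18 lower (3.28%), with a median log2 of 0.26. In the single libraries the median deviation from the CTRL mean was 0.00, 0.00 and 0.01 in CTRL and 0.28, 0.29 and 0.26 in DDC. Of 261 genes in the chromosome 3 run 3 were higher and 67 lower (25.7%), with a median of -0.28 and library medians of -0.25, -0.28 and -0.23 in DDC. The chromosome 16 run had 49 higher and 4 lower of 264 (median 0.22), chromosome 19 had 114 and 29 of 854 (0.13), the chromosome 1 run 88 and 29 of 552 (0.10) and the chromosome 7 run 1 and 18 of 98 (-0.17). The 2 short runs held few genes, 28 on chromosome 6 (1 higher and 3 lower) and 23 on chromosome 21 (4 lower and none higher by limma, 1 at an unadjusted p of 0.05 and none by edgeR). Some runs without such a bin did not lean with the input. Among higher runs, chromosome 8 from 120 to 146 Mb had 8 genes higher and 16 lower of 125 (median 0.04). Chromosome 7 from 140 to 159 Mb had 7 and 12 of 79 (-0.05), and chromosome 21 from 30 to 47 Mb 5 and 11 of 120 (0.01). In the SLC6A4 line, set against the same CTRL libraries, the medians were 0.08 for the chromosome 12 run, -0.03 for chromosome 3, 0.05 for chromosome 16 and 0.03 for chromosome 19. Its ChIP nevertheless differed from CTRL there. The bins of chromosome 19 were at 0.30 to 0.80 in H3K4me3 and 0.29 to 0.61 in H3K4me3Q5ser. Those of the chromosome 3 run were at -0.37 to 0.12 and -0.41 to 0.14. Bins of the chromosome 16 run were at 0.22 to 0.49 and 0.21 to 0.65. Bins of the chromosome 12 run were at -0.37 to 0.66 and -0.32 to 0.79. The DDC bins of chromosome 19, against the same CTRL libraries, were at -0.04 to 0.44 and 0.07 to 0.46. Its chromosome 16 bins were at 0.07 to 0.15 and 0.14 to 0.23. Its chromosome 12 bins were at 0.09 to 0.24 and 0.06 to 0.39. Over the 276 bins with at least 10 tested genes, the Pearson correlation of the input difference with the median RNA difference was 0.77, and that of GC content with it was 0.57. With the GC offset on the input, the correlation of input with RNA was 0.658.

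**Figure D5:**
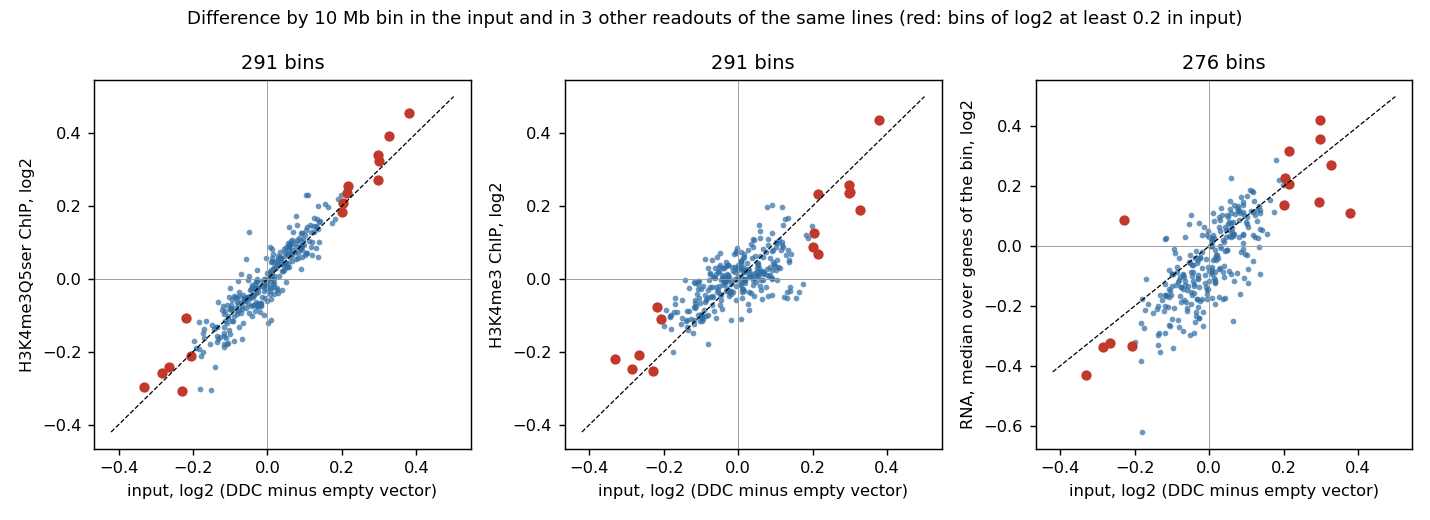
Difference between DDC and empty vector by 10 Mb bin in input (x axis, log2) against H3K4me3Q5ser, H3K4me3 and the median RNA difference of the bin's genes (y axes, log2); the dashed line marks equal differences and red points the bins of at least 0.2 in input. Without a correction for GC, as drawn, points follow the line most closely for H3K4me3Q5ser (Pearson 0.933, 291 bins), and RNA is shown for 276 bins. With the GC offset on input the correlation was 0.835 for H3K4me3Q5ser and 0.874 for H3K4me3.

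Single genes of a run did not all follow its level. On chromosome 12 the mitochondrial phosphate carrier SLC25A3 had 4276, 4133 and 3926 normalised units in CTRL and 6761, 7695 and 7001 in DDC (log2 0.80, limma adjusted p = 6.8e-08). PEBP1, an inhibitor of RAF kinase, rose by 0.73, the thioredoxin reductase TXNRD1 by 0.74 and the proteasome factor PSMD9 by 0.72. Against the direction of the input, the endoplasmic reticulum chaperone HSP90B1 fell from 5974, 5889 and 6160 to 3473, 3631 and 3224 (log2 -0.80, adjusted p = 3.9e-08), and the keratin KRT7 was at -0.85. On chromosome 3, LXN, a carboxypeptidase inhibitor, fell from 3330, 3566 and 3811 to 311, 290 and 279 (log2 -3.60, adjusted p = 1.4e-19). The membrane protein TM4SF1 was at -0.93 and the kinase MAP3K13 at -0.70, while SRPRB, a receptor of the secretory pathway, rose by 0.39 (0.33 and not past the threshold without CTRL library 2). On chromosome 16 the metallothionein MT1X rose by 2.09 and NQO1, a quinone reductase, by 0.88, and the cadherin CDH1 fell by 3.54. On chromosome 19 the receptor kinase AXL rose by 0.87 and complement C3 fell by 2.75.

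Genes known for recurrent gain or loss in cancer were read through the bin that holds them. Of 34 growth-promoting genes, CCNE1, a cyclin, lay in a bin of 0.2 or more, and PIK3CA, a lipid kinase, and TERC, the telomerase RNA, lay in bins of -0.2 or less. Of 32 growth-restraining genes FANCA, of DNA crosslink repair, lay in a higher bin and none in a lower one. Of all 19106 protein-coding genes in tested bins 6.13% lay in the higher and 0.816% in the lower bins. Start regions gave the finer view. The region at CDK4, a cell cycle kinase, was higher (log2 0.29, edgeR adjusted p = 3.8e-07) within the chromosome 12 run, as was MDM4, on chromosome 1, at 0.12 (adjusted p = 0.024). PIK3CA (-0.36), the repressor BCL6 (-0.37), the receptor kinase MET (-0.32) and the kinase CDK6 (-0.34) were lower, with adjusted p from 0.00038 to 0.0038. That makes 2 higher and 4 lower of 28 tested start regions, where 3.3% of all 9499 tested protein-coding start regions were higher and 3.52% lower. The start region of CCNE1 was at -0.22 with an adjusted p of 0.72, unlike its bin. That of TERC was at -0.05 (edgeR adjusted p = 0.86) in a bin at -0.33. The bin of CDK6 was at 0.01 (edgeR adjusted p = 0.46), unlike its start region. Among 28 tested growth-restraining genes, BAP1, a deubiquitinase, was higher at 0.55 (adjusted p = 4e-05), as was the methyltransferase KMT2D at 0.31 (0.00054), and CDKN2A, a cell cycle inhibitor, was lower at -0.19 (0.025). The region at CDK4 is long and the one at BAP1 holds further gene starts, so neither belongs to its gene alone.

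For the genes of the study itself the input gave little. No region lies in DDC, so reads of the transgene are not seen in this table, and the bin around the DDC locus on chromosome 7 differed by 0.01 (SE 0.03, edgeR adjusted p = 0.82). The bin of SLC6A4 on chromosome 17 differed by 0.05 (adjusted p = 0.0073). SLC6A4 held 5 small regions with 28, 18 and 25 input pairs in CTRL and 18, 22 and 13 in DDC. At the start of TGM2, the transglutaminase that attaches serotonin to histones, input was 94, 80 and 97 pairs in CTRL and 89, 94 and 80 in DDC, a log2 of 0.00 (SE 0.13, adjusted p = 1). In the same region H3K4me3Q5ser held 1073, 1027 and 1020 pairs in CTRL and 408, 425 and 389 in DDC (log2 -0.71 after scaling).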

How the data were processed

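ChIP input, H3K4me3 and H3K4me3Q5ser were sequenced in 3 libraries per line, and RNA in 3 libraries per line. Per the file headers, the authors counted read pairs in each region with featureCounts 2.0.3 on alignments with duplicates removed, sharing pairs that match several places as fractions, so the deposited values are estimated counts. The header gives a reverse-strand setting with regions that have no strand. Per the submitters' processing notes, GRCh38, Bowtie2 and MACS2 were used. For RNA the authors deposited values divided by DESeq2 size factors, a normalised signal per gene, per the file headers; per the submitters' processing notes, HISAT2 2.1.0 was used.

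From these files, counts were rounded (after summing, for bins and arms) and tested with edgeR 4.0.16 (R 4.3.3; filterByExpr, TMM, quasi-likelihood test, Benjamini-Hochberg adjustment over all features of a kind). Bins needed at least 5 regions. RNA was tested with limma 3.58.1 on log2(value + 1) for genes of at least 10 in at least 3 libraries, a scale that understates changes of low genes. Whole reads were recovered for 100% of the RNA values, and edgeR on them was an alternative. GC was corrected by a loess trend (span 0.5) of the log2 difference of regions, as an offset. Alternatives were DESeq2 1.42.0, other scalings, no filter, 20 Mb and shifted bins, each library left out, and a replicate block. Scripts were tested on simulated data. Named arms, bins, regions and RNA genes were those with the smallest adjusted p, up to 8 arms, 8 bins, 3 regions and 4 genes of each run in each direction. The members and lists were chosen with earlier results of these data known. Same-numbered inputs did not deviate together (correlations 0.033, -0.064 and -0.11), so the numbers do not pair the samples. Precision is limited by depth: 1394509 to 1833609 input pairs per library. SLC6A4 inputs were not analysed here. Some items are not reported here.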

Additional observations from a re-analysis of the deposited data

Results flagged for a closer look

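In 10 of the 15 bins that differed by 0.2 or more in input, the H3K4me3 difference departed from that of the input by edgeR's interaction test. It was smaller than the input gain on chromosome 16 at 80 to 90 Mb (by -0.16, adjusted p = 1.6e-06), chromosome 12 at 130 to 134 Mb (-0.15, 0.0023), chromosome 19 at 10 to 20 Mb (-0.13, 4.7e-08) and chromosome 1 at 10 to 20 Mb (-0.093, 7.1e-05). The same held on chromosome 12 at 120 to 130 Mb (-0.076, adjusted p = 0.00011) and 110 to 120 Mb (-0.074, 0.0015) and on chromosome 19 at 50 to 59 Mb (-0.053, 0.00055). It was smaller than the input loss on chromosome 6 at 60 to 70 Mb (0.13, adjusted p = 0.048), chromosome 3 at 160 to 170 Mb (0.10, 0.0048) and chromosome 7 at 10 to 20 Mb (0.082, 0.01). In all 10 the mark had the sign of the input. With the GC offset the departures on chromosomes 3, 6 and 7 and in the terminal bin of chromosome 12 no longer passed, and with plain library totals those on chromosome 12 at 110 Mb and chromosome 19 at 50 Mb did not. The chromosome 6 departure also failed without any 1 of the 6 input libraries.

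H3K4me3Q5ser departed from the input in 3 of the 15 bins. It exceeded the input gain on chromosome 12 at 100 to 110 Mb (0.050, edgeR adjusted p = 4e-04) and at 120 to 130 Mb (0.053, 0.0043), the second not without DDC input 2. On chromosome 3 at 170 to 180 Mb it fell short of the input loss (0.036, 0.032), which did not pass with the GC offset.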

How the results depend on the processing

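At a median of 44 to 57 pairs, single regions depended on the method. DESeq2 called 42 regions higher and 63 lower, the GC offset left 377 lower, and leaving out 1 input library gave 297 to 348 higher and 410 to 497 lower. With plain library totals 5 bins were higher and 14 lower by 0.2 or more. Bins of 20 Mb, being fewer (154), gave 51 higher and 56 lower, of which 4 and 2 reached 0.2. The GC offset left 59 lower bins, and the replicate block with the GC offset 56. The replicate block alone gave 91 higher and 91 lower bins, 20 and 15 arms, and 464 and 656 regions, and changed no call of a named bin. The chromosome 6 bin was lost with the GC offset, alone or with the block (log2 -0.09 in both). H3K4me3 beyond input was higher in 102 and lower in 39 bins with plain library totals, and with the GC offset in 0 higher bins (edgeR; 3 at an unadjusted p of 0.05, no other tool run). Leaving out 1 of the 12 libraries gave 19 to 65 higher bins for H3K4me3 beyond input, and 31 to 83 higher and 10 to 34 lower for H3K4me3Q5ser. Lower RNA genes numbered 708 to 1041 with 1 library left out. No named bin, arm, region or gene reversed its sign in these fits. Of all called features, 15 bins and 1 arm (17p) had the other sign with the GC offset, 1 bin past the threshold. The removal of short coding exons or zinc-finger starts, the summing of DDC 2 and 3, the GC offset on regions and marks, and the left-out mark and RNA libraries were chosen after seeing the data. Comparisons planned with SLC6A4 inputs were not run.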
